A study of Mus musculus with 3 samples.

Results

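Wnt2 and Wnt9b are 2 of the 125 panel targets seen in 3 targeted single-cell libraries of mouse bone marrow. The pair was selected on measured values, because molecules of both had been found in the same fetal endothelial cells, and every molecule of either gene was summed per cell barcode in all 3 libraries. A cell counts as holding a ligand when it has at least 1 corrected molecule. By that rule 89 of 4038 cells of the E18.5 EC library, 191 of 12844 of the E18.5 BM cells library and 139 of 7939 of the Adult BM cells library hold Wnt2 or Wnt9b. The levels and the overlap below are therefore descriptions.

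All libraries came from wild-type C57/B6 mice, the E18.5 libraries from late embryos and the Adult BM cells from mice whose age the labels do not give. E18.5 EC were sorted endothelial cells. The series notes give CD31 with endomucin as the gate and the study's methods give CD31 alone. For the other libraries the series notes say that lineage antibodies on beads took away mature blood cells. The study's methods, which describe its whole-transcriptome libraries, name Ter119, Gr-1, B220 and CD3e for fetal femurs. For adult marrow they name a lineage cocktail, then CD71, and then CD117, CD45 and Ter119. Animals were pooled into 1 library per group, so no test across samples can be made, no p-value is given, and stage, library, preparation of the cells and depth cannot be told apart.

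Wnt proteins are secreted, lipid-modified ligands that bind Frizzled receptors with an Lrp co-receptor. They need Wls (Wntless) to leave the cell, and Lgr receptors with R-spondins raise the response of the receiving cell. Wnt2 and Wnt9b are best known as the Wnt ligands of liver sinusoidal and central vein endothelium. Wnt2 is also a ligand of lung mesenchyme and Wnt9b of the developing kidney tubule. In marrow, sinusoids carry the scavenger receptor Stab1 and many venous and sinusoidal cells carry von Willebrand factor (Vwf).

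The genes lie on different chromosomes. On GRCm38, Wnt2 (ENSMUSG00000010797.6, panel transcript ENSMUST00000010941.5) spans chr6:17988940-18030585 on the minus strand with 5 exons. Wnt9b (ENSMUSG00000018486.2, ENSMUST00000018630.2) spans chr11:103727364-103749821, also on the minus strand, with 4 exons. It stands beside another Wnt ligand gene, Wnt3, whose start is 24328 bases away on the plus strand. The panel reads each ligand through 1 amplicon. The bases before each start are shown because cells with Wnt9b in E18.5 EC mostly hold Wnt2 too, so a reader can set the promoters side by side. In Adult BM cells 0 of the 13 cells with Wnt9b had Wnt2. They are RefSeq sequence of GRCm38.p6, minus strand, from chr6:18030586-18030695 and chr11:103749822-103750071, and they end where the annotated transcript begins. Capitals mark the letters GGAAG, the core read by ETS factors, on either strand.

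Wnt2: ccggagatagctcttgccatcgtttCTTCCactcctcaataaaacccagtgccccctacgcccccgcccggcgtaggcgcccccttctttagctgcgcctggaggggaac

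Wnt9b: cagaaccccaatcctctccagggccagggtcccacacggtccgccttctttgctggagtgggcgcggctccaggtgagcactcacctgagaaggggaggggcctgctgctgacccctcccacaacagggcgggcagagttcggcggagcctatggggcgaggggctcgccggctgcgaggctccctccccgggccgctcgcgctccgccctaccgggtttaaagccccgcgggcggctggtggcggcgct

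Both windows are rich in G and C, at 62.7% for Wnt2 and 72% for Wnt9b. GGAAG occurs once in the 110 bases of Wnt2, and at least once in 34.2% of 32817 promoter windows of that length. It does not occur in the 250 bases of Wnt9b, while 64.1% of windows that long hold it. All windows were cut from the upstream end of each promoter. The 110-base windows thus stop short of the RefSeq start, and their shares are not for bases next to a start. Neither TATAAA nor GATAA, each searched on both strands, occurs in either window. In the shorter upstream windows these letters are found in 5.63% and 12.0% of promoters, and in the longer windows in 12.4% and 22.6%.

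The files hold 432987 molecules for E18.5 EC, 1837897 for E18.5 BM cells and 6304495 for Adult BM cells, with a median of 83, 97 and 242 per kept cell. Pecam1 (CD31) was present in 95.1% of E18.5 EC cells, as the sort would give, but the leucocyte gene Ptprc was present in 25.4%. The libraries share 38 to 113 barcode numbers pairwise, and all cells were kept with their own library. No doublet caller was run. All intervals are exact 95% intervals for counting error, and a value thinned to 50 molecules is one in which each cell was cut at random to 50 molecules.

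Wnt2 was found in every library and Wnt9b in E18.5 EC and Adult BM cells. In E18.5 EC, 372 Wnt2 molecules gave 8.60 per 10000 molecules (7.74 to 9.52), in 86 cells (2.13%, 1.71 to 2.62). In E18.5 BM cells, 621 molecules gave 3.38 per 10000 (3.12 to 3.66), in 191 cells (1.49%). In Adult BM cells, 426 molecules gave 0.676 per 10000 (0.613 to 0.743), in 126 cells (1.59%). The 3 intervals of the level did not overlap. At 50 molecules per cell, the share of cells with Wnt2 was 1.68% (1.27 to 2.19) in E18.5 EC, 0.516% (0.369 to 0.703) in Adult BM cells and 0.662% (0.516 to 0.835) in E18.5 BM cells. At equal depth the marrow libraries thus did not differ beyond counting error, while E18.5 EC stood above both.

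Wnt9b was the rarer ligand. E18.5 EC held 66 molecules in 22 cells, 1.53 per 10000 (1.18 to 1.94). Adult BM cells held 26 in 13 cells, 0.0412 per 10000 (0.0269 to 0.0604). For either ligand, a level over a whole library also depends on the mix of its cells. The chondrocyte-like and osteoblast-like cells of Adult BM cells had medians of 4003 and 5547 molecules per cell. E18.5 BM cells held none, and none was listed for that library before correction either. Its 12844 cells allow a share of up to 0.0234% and its molecules a level of up to 0.0163 per 10000 by the limit of 3 counts, both below the interval in Adult BM cells. At 50 molecules per cell, however, the exact limit for its 10578 cells was 0.0349% and the adult share 0.0516% (0.0141 to 0.132), so at equal depth a difference in the share was not detectable. Wnt2 was the most frequent of 17 Wnt ligands in E18.5 EC, with 57.0% of 653 ligand molecules, and Wnt9b followed Wnt5b with 10.1%. In E18.5 BM cells Wnt2 held 15.5%, behind Wnt11 and Wnt9a. In Adult BM cells it held 3.49%, behind Wnt4, Wnt5b, Wnt11 and Wnt9a, and Wnt9b held 0.213%.

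In E18.5 EC nearly all cells with Wnt9b also held Wnt2, while most cells with Wnt2 lacked Wnt9b. Wnt9b was present in 19 of the 86 cells with Wnt2 (22.1%, 13.9 to 32.3) and in 3 of the 3952 cells without it (0.0759%, 0.0157 to 0.222). Read the other way, Wnt2 was present in 19 of the 22 cells with Wnt9b (86.4%, 65.1 to 97.1) and in 1.67% of the cells without. At 50 molecules per cell, where deep cells have no advantage, the shares with Wnt9b were 24.1% (13 of 54, 13.5 to 37.6) and 0.158% (5 of 3158, 0.0514 to 0.369). With molecules after the first correction step alone, which keeps more single-read molecules, the equal-depth share fell to 9.89% (9 of 91). The 19 cells with both carried 186 of the 372 Wnt2 molecules (50%) and 63 of the 66 Wnt9b molecules (95.5%). Wnt2 was the more frequent of the pair in 17 of them, the ligands were equal in 1, with 13 molecules each, and Wnt9b led in 1.

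**Figure D1:**
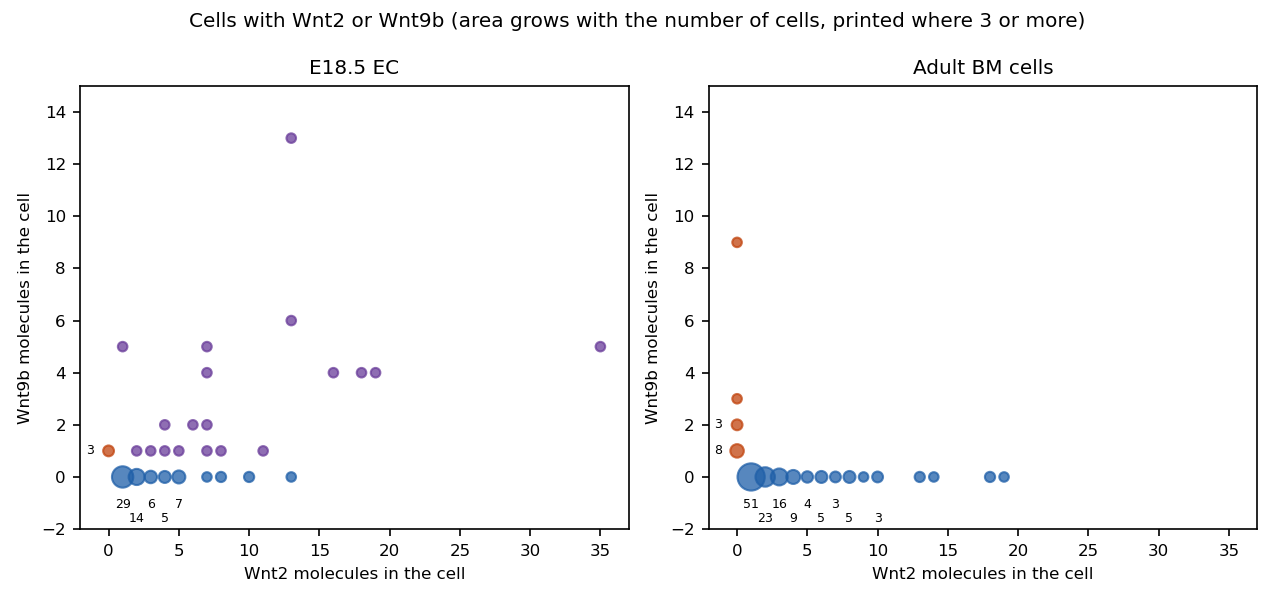
Cells with Wnt2 or Wnt9b in E18.5 EC (left) and Adult BM cells (right), placed by their number of Wnt2 molecules (x axis) and Wnt9b molecules (y axis), with the area of a point growing with the number of cells. In E18.5 EC 19 cells lie off both axes, and in Adult BM cells none does.

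The overlap rose with the amount of Wnt2. Among cells with 1 Wnt2 molecule, 1 of 30 had Wnt9b (3.33%, 0.0844 to 17.2). Among those with 2 to 4 molecules it was 4 of 29 (13.8%, 3.89 to 31.7), and among those with 5 or more it was 14 of 27 (51.9%, 31.9 to 71.3). Median depth rose too, from 95.5 through 103 to 161 molecules, and its part in the trend across these 3 classes was not tested. Cells with both ligands had a median of 7 Wnt2 molecules (1 to 35) and cells with Wnt2 alone a median of 2 (1 to 13). Single cells carried much of the total. The cell with the most Wnt2 had 35 molecules (9.41% of all) and also 5 of Wnt9b, and the cell with the most Wnt9b had 13 (19.7%).

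**Figure D2:**
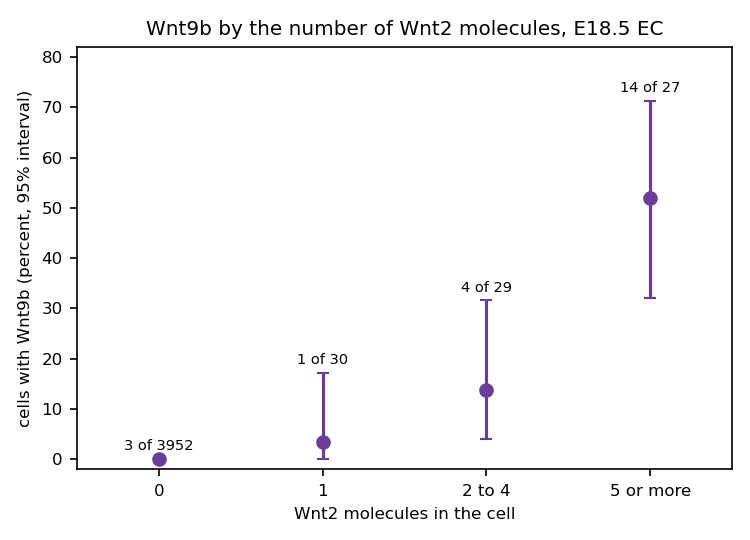
Share of E18.5 EC cells with Wnt9b (y axis, percent, exact 95% interval) by the number of Wnt2 molecules in the cell (x axis), with the cells counted above each point. The share is 0.0759% at 0 molecules and 51.9% at 5 or more, the intervals of the classes 1 and 2 to 4 overlap, and the interval for 5 or more lies above both.

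Cells were grouped by clustering on targets outside the Wnt pathway, niche factor and cell cycle lists, so neither ligand entered the clusters. In E18.5 EC 3 clusters held all of Wnt9b and 360 of the 372 Wnt2 molecules. Cluster 9 had 142 cells, was endothelial-like and was with Stab1, Lepr, Vwf and Kdr among its leading targets, the latter being VEGF receptor 2. It held 256 Wnt2 molecules (68.8%) in 64 of its cells (45.1%, 36.7 to 53.6), at 169 per 10000 (149 to 191), and 24 Wnt9b molecules in 9 cells, each of which also had Wnt2. Cluster 7, with 231 cells, was led by Vwf and by the matrix genes Fbn1 and Fbln5 and stayed unnamed, although all its cells had Pecam1. It held 77 Wnt2 molecules in 8 cells and 33 Wnt9b molecules in 9, with both in 7. Cluster 1, the largest endothelial-like group with 1382 cells and with Stab1 and Kdr among its leading targets, held 27 Wnt2 molecules in 10 cells and 9 Wnt9b molecules in 4, with both in 3.

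With molecules scaled to 10000 before clustering, both ligands lay mainly in 1 cluster of 886 cells, so the division between clusters depends on that choice. Its largest folds were for Postn, Aspn and Rgs5, but most of its cells lacked Postn, which was present in 1.29% of all E18.5 EC cells. Postn was present in 2 of the 86 cells with Wnt2 and in none of the 22 with Wnt9b.

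Wnt2 was thus frequent across cluster 9 and rare in cluster 7, where 1 cell held 35 of the 77 molecules. In cluster 7, 7 of the 8 Wnt2 cells had Wnt9b (87.5%, 47.3 to 99.7). In cluster 9 it was 9 of 64 (14.1%, 6.64 to 25). These intervals do not overlap, although cluster 7 rests on 8 cells. The 263 cells of cluster 6, led by the arterial genes Gja4 and Sema3g, had no molecule of either ligand. Neither did the 441 haematopoietic-like cells of cluster 3, at a median depth of 157 against 93 in cluster 9, which allows a share of up to 0.833% by the exact interval. Thinned to 50 molecules, Wnt2 was present in 33.9% of cluster 9 (25.4 to 43.2) and in none of 426 haematopoietic-like cells.

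**Figure D3:**
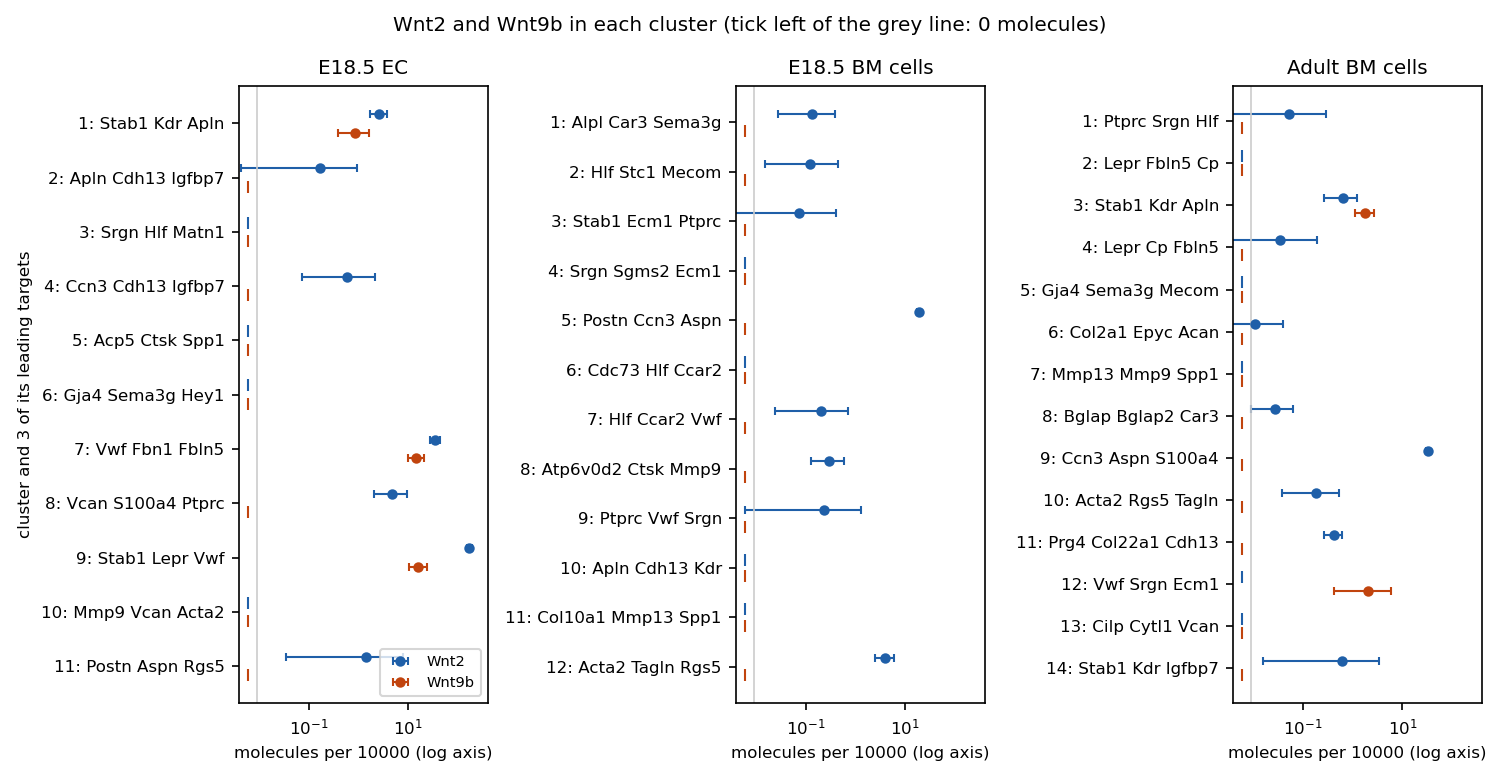
Level of Wnt2 (blue) and Wnt9b (orange) in each cluster of the 3 libraries, in molecules per 10000 on a log axis with exact 95% Poisson intervals, which the left edge of the axis cuts for the lowest levels. Wnt2 peaks at 169 per 10000 in cluster 9 of E18.5 EC, 19.1 in cluster 5 of E18.5 BM cells and 33.0 in cluster 9 of Adult BM cells, and Wnt9b appears in 3 clusters of E18.5 EC and 2 of Adult BM cells.

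Cells with both ligands had more Vwf and less Stab1 than cells with Wnt2 alone. Cells with both had a median of 13 Vwf molecules (0 to 50), or 9.63% of all their molecules, and cells with Wnt2 alone a median of 1 (0 to 23), or 1.27%. At 50 molecules per cell, Vwf stood at 6.29 per cell in the 17 cells with both that were deep enough and at 1.68 in 60 with Wnt2 alone, a ratio of 3.74 (2.82 to 4.96). Stab1 went the other way, with 4.41 against 7.98 molecules per cell and a ratio of 0.553 (0.427 to 0.706). Fbn1, which encodes the microfibril protein fibrillin, had 11 molecules in cells with both and 4 in cells with Wnt2 alone, a ratio of 9.71 (2.88 to 41.8). This comparison used its own draw of 50 molecules per cell. Cdh13 at 3.34 (1.65 to 6.73), Ecm1, a secreted matrix protein, at 1.79 (1.15 to 2.75) and Kitl at 1.74 (1.08 to 2.73) were also higher with both. Gja4 at 0.265 (0.0524 to 0.831), Igfbp7 at 0.673 (0.538 to 0.834) and the proliferation gene Mki67 at 0.221 (0.0256 to 0.865) were lower. Mgp was at 0 (0 to 0.586), from 24 molecules in cells with Wnt2 alone. A separate draw gave no Mgp molecule in 60 cells with Wnt2 of cluster 9, so the Mgp ratio may rest on a few cells outside that cluster. Lepr, Kdr, Wls and Lgr4 had ratios whose intervals included 1. The ranges overlapped for Vwf and Stab1, so neither separated the cells one by one.

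**Figure D4:**
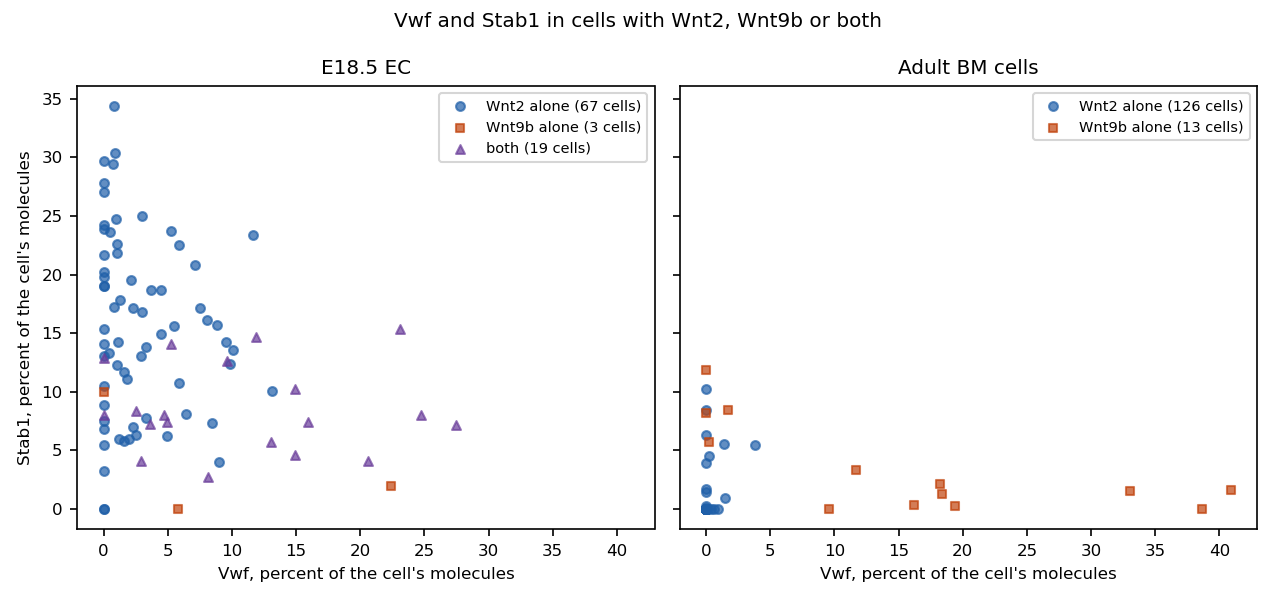
Vwf (x axis) and Stab1 (y axis) as percent of a cell's molecules, for cells with Wnt2 alone, Wnt9b alone or both in E18.5 EC (left) and Adult BM cells (right). Cells with Wnt2 alone in E18.5 EC lie mostly along the Stab1 axis at a median of 1.27% Vwf, cells with both reach 27.5%, and adult cells with Wnt9b split between high and near-zero Vwf.

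Set against the rest of E18.5 EC, cells with Wnt2 were rich in sinusoidal and venous genes. Of the 82 targets with at least 10 molecules at equal depth, 16 (19.5%) were at least 2-fold higher and 41 (50%) at least 2-fold lower in the 77 deep enough cells with Wnt2 than in 3133 without. The interval left out 1 for 11 and 20 of these, and the median ratio over the 82 was 0.504. Stab1 stood at 7.01 against 2.03 molecules per cell, a ratio of 3.45 (3.15 to 3.76), and was present in 97.4% of the cells against 57.0%. Vwf stood at 2.69 against 0.850, a ratio of 3.16 (2.73 to 3.64). Both sinusoidal or venous markers on the panel were therefore higher.

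Lepr, the leptin receptor and otherwise a marker of adult marrow stroma, had the largest ratio at 4.85 (2.93 to 7.65), with 21 molecules in cells with Wnt2. Fbn1 was at 4.49 (2.44 to 7.67). The receptors Lgr4 and Fzd5 had ratios of 3.47 (2.02 to 5.62) and 3.35 (2.01 to 5.29). Aspn had a ratio of 3.97, but its 8 molecules came from 1.30% of the 77 cells, which is 1 cell, and it fell to 0.906 or to 0 under 5 other treatments of the data. Within cluster 9, described below, Lepr was at 1.55 (0.660 to 3.81). Lgr4 and Fzd5 were each at 1.74 (0.762 to 4.22) there, and all of these intervals include 1.

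Many markers of other cell types were scarce in these cells. S100a4, Spp1 and Mmp9, genes of myeloid and bone cells, had no molecule after thinning and were at least 23.0-fold, 13.6-fold and 1.69-fold lower than in cells without Wnt2, by the limit of 3 counts. These folds are against the whole library, which includes 441 haematopoietic-like cells in cluster 3 and 304 osteoclast-like cells in cluster 5. All 3 genes are among the leading targets of cluster 5. Folds against other endothelial cells alone are not given for them. All 3 capillary markers (Apln, Stc1 and Cdh13) were lower, Apln at a ratio of 0.322 (0.225 to 0.447). Of the arterial markers, Sema3g and Hey1 were lower while Gja4 was at 1.45 (1.08 to 1.91). The haematopoietic markers Ptprc, Srgn, Hlf and Mecom were all lower, and summed they stood at 1.38 against 6.78 molecules per cell. At full depth Ptprc was present in 4 of the 86 cells and Postn, a mesenchymal gene, in 2. Srgn was not scarce by this measure, with 64 of the 86 cells positive (74.4%) against 57.2% of cells with neither ligand. In the cells with both ligands Ptprc and Postn were not seen, and Srgn was present in 15 of 19.

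Fbn1, Vwf, Lgr4 and Stab1 were among the largest ratios for Wnt9b as well, with Fbn1 and Vwf in front. Of the 82 targets, 15 (18.3%) were at least 2-fold higher and 47 (57.3%) lower in 20 cells with Wnt9b than in 3190 without, with intervals leaving out 1 for 7 and 15. Fbn1 led at 11.3 (5.31 to 21.4), followed by Vwf at 7.08 (5.86 to 8.49), and Lgr4 was at 4.29 (1.56 to 9.49). Stab1, at 4.50 against 2.14 molecules per cell, had a ratio of 2.10 (1.69 to 2.59). Ecm1 was at 2.15, Wls at 2.05 (1.26 to 3.14) and Apc, part of the complex that degrades beta-catenin, at 1.89. Cxcl12, Ccne1, Hey1 and Mgp were at 0 and between 1.24-fold and 1.53-fold lower at least. Since 19 of the 22 cells are shared with the Wnt2 comparison, these ratios are not independent of it.

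Within cluster 9 little separated cells with Wnt2 from cells without. Of 36 targets 3 (8.33%) were at least 2-fold higher and 4 (11.1%) lower in 60 cells with Wnt2 against 58 without. The number higher was 1 without the deepest cells and 0 without cells that had Ptprc or Postn. Stab1 was level, at 8.43 against 8.0 molecules per cell (ratio 1.05, 0.928 to 1.20), and so was Wls at 1.11 (0.815 to 1.52). Vwf was at 1.35 (1.05 to 1.74). Ccar2, a nuclear protein used here as a broadly expressed target, was at 2.30 (1.25 to 4.41) and Fzd6 at 2.22 (1.02 to 5.23). Mecom, a transcription factor of stem and arterial cells, was at 0.284 (0.0820 to 0.803) and the heparin-binding factor Ptn at 0.0967 (0.00223 to 0.680). Without cells that had Ptprc or Postn the Fzd6 ratio was 0.923, and with the first correction step alone the Mecom ratio was 1.10.

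The marrow libraries allow endothelial cells to be examined outside the sort. In E18.5 BM cells the 410 endothelial-like cells had neither ligand, at a median depth of 85. That allows a share of up to 0.896% by the exact interval. In E18.5 EC the 2616 cells of the endothelial-like clusters and cluster 7, at a median depth of 75, had Wnt2 in 3.17% (2.53 to 3.92) and Wnt9b in 0.841% (0.528 to 1.27). The limit lies below the Wnt2 share but not below the Wnt9b share, so a difference in Wnt9b was not detectable with this number of cells. The E18.5 EC set leaves out cluster 4, which stayed unnamed although all its 414 cells had Pecam1. That cluster had Wnt2 in 1 cell and no Wnt9b, so adding it would lower both shares. The 2 sets differ in make-up. The 410 cells were led by Apln, Cdh13 and Kdr, and Stab1 was not among their 10 leading targets. In E18.5 EC cluster 2, also led by Apln and Cdh13, Wnt2 was present in 1 of 598 cells. The gates of the libraries differ too, and the part of gate or make-up was not tested.

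Adult endothelial cells held both ligands, and no cell was seen with both, although cells with either were few. Their 1679 cells, in the endothelial-like clusters and a Vwf-led cluster of 62 cells, had Wnt9b in 13 (0.774%, 0.413 to 1.32), close to the share in E18.5 EC. Wnt2 was present in 8 of them (0.476%, 0.206 to 0.937), below the share in E18.5 EC. At 50 molecules per cell, Wnt9b was present in 0.503% (0.217 to 0.989) of adult cells and 0.759% (0.425 to 1.25) of E18.5 EC cells, intervals that overlap. Wnt2 was present in 0.126% (0.0152 to 0.454) and 2.73% (2.06 to 3.55), intervals that do not. By level, Wnt9b stood at 1.06 per 10000 (0.694 to 1.56) in the adult endothelial cells and 2.76 (2.13 to 3.51) in those of E18.5 EC. These intervals do not overlap, although molecules of 1 cell are not independent. The endothelial cells of the libraries thus differed in Wnt2 beyond counting error. For Wnt9b they differed in level but not detectably in the share of cells at equal depth, while stage, gate and depth differed at once.

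All 26 adult Wnt9b molecules lay in endothelial cells, 23 of them in 12 cells of cluster 3, led by Stab1, Kdr and Apln, and 3 in 1 cell of the Vwf-led cluster 12. All 13 cells had Pecam1 and none had Ptprc or Postn. None of the 126 adult cells with Wnt2 had Wnt9b (exact limit 2.89%) and none of the 13 with Wnt9b had Wnt2 (limit 24.7%). The latter limit lies below the 86.4% of E18.5 EC. Most of the 126 cells were not endothelial, however. In cluster 3 the 7 cells with Wnt2 had no Wnt9b, which allows a share of up to 41.0% and so does not set the adult apart from the 22.1% of E18.5 EC.

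As in the embryo, adult cells with Wnt9b were rich in Vwf. At full depth they had a median of 34 Vwf molecules (0 to 74), 16.2% of their molecules at the median, with 11 of 13 cells positive. The cell with the most Wnt9b, 9 molecules or 34.6% of all, had 54 of Vwf and 1 of Stab1. At 50 molecules per cell, the 12 cells of cluster 3 had 7.75 Vwf molecules per cell against 0.620 in the 1005 others of that cluster, a ratio of 12.5 (9.94 to 15.6). Stab1 had a ratio of 0.755 (0.488 to 1.12). The Vwf values fell apart within the 13 cells, with 4 at 2 molecules or fewer, 2 at 5 or 7 and 7 at 34 or more. The 7 adult Wnt2 cells of cluster 3 showed no such excess, with 4 Vwf molecules in all and a ratio of 0.811 (0.220 to 2.08).

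In the marrow libraries most Wnt2 lay in mesenchymal-like cells. Cluster 5 of E18.5 BM cells, 1187 mesenchymal-like cells led by Postn, Ccn3 and Aspn, held 582 of the 621 molecules (93.7%) in 172 cells (14.5%, 12.5 to 16.6), at 19.1 per 10000 (17.6 to 20.7). The mural-like cluster 12, led by Acta2 and Tagln, held 22 more in 9 of 153 cells. Cluster 9 of Adult BM cells, 308 mesenchymal-like cells led by Ccn3, Aspn and S100a4, held 382 of 426 molecules (89.7%) in 103 cells (33.4%, 28.2 to 39.0), at 33.0 per 10000 (29.8 to 36.5). Next was cluster 11, led by the lubricin gene Prg4, with 23 molecules in 8 of 282 cells.

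The Lepr-led stromal clusters held almost none of it. The 1667 cells of adult cluster 2, led by Lepr, Fbln5 and Cp, had no Wnt2 molecule at a median depth of 396, and the Lepr-led cluster 4 had 1. In the adult haematopoietic-like cluster 1, Wnt2 was present in 1 of 1736 cells (0.0576%) at a median depth of 90, against 302.5 in cluster 9. Thinned to 50 molecules, 11.2% of cluster 9 (7.90 to 15.3) and 1 of 1638 haematopoietic-like cells had it. The thinned share in E18.5 BM cells was 5.16% in cluster 5 (3.96 to 6.59), and the highest value among the clusters where nearly all cells had Ptprc was 0.292%, at a median depth of 47 against 233 in cluster 5.

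The targets with the largest ratios in E18.5 BM cells were matrix genes and other Wnt ligands. Postn was present in 96.3% of the cells with Wnt2 at full depth, and Ptprc in 20.9% against 82.6% of cells without it. Of 101 targets, 32 (31.7%) were at least 2-fold higher and 50 (49.5%) lower in 191 cells with Wnt2 than in 10387 without, with intervals leaving out 1 for 25 and 42. Epyc, a small cartilage proteoglycan, had the largest ratio at 25.4 (12.4 to 49.4) from 14 molecules, followed by Fbn1 at 23.5 (19.6 to 28.0), Wnt9a at 22.9 (15.4 to 33.5) and Wnt5a at 17.4 (9.25 to 31.1). Aspn, an extracellular matrix protein of perichondrium and tendon, was present in 90.6% of the cells against 9.23% and had a ratio of 13.0 (12.1 to 14.0). Ccn3, a matricellular protein, was at 12.3 (11.5 to 13.2), the secreted Dkk3 at 9.73 (7.83 to 12.0) and Rspo2 at 9.44 (5.64 to 15.1). All 7 mesenchymal markers that could be compared were higher. Col10a1, a gene of hypertrophic cartilage, was at least 6.89-fold lower, and Car3, Kdr and Gja4 were at 0 as well and at least 2.42-fold, 1.77-fold and 1.47-fold lower. Without cells that had Ptprc or Pecam1, the Kdr ratio was 3.17 and 15 targets in place of 32 were higher.

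Within cluster 5 some of this remained. Of 83 targets, 7 (8.43%) were at least 2-fold higher and 30 (36.1%) lower in 172 cells with Wnt2 against 991 without. Fbn1 was at 3.44 (2.86 to 4.13), Epyc at 3.12 (1.46 to 6.38), Ecm1 at 2.61 (2.22 to 3.05) and Wnt9a at 2.37 (1.55 to 3.56). Spp1, at 9.60 (4.87 to 19.6), had 25 molecules in 4.07% of the cells, and its ratio was 0.471 when cells were called after thinning. Postn, which defines the cluster, was level at 1.06 (1.02 to 1.09), and Ccn3 was at 1.33 (1.24 to 1.43). The cartilage gene Acan was at 0.0465 (0.00117 to 0.264), and Scrg1 and Stc1 were at 0.

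In Adult BM cells Ccn3, Aspn, Fbn1 and Wnt9a were again among the largest ratios, and markers of Lepr-rich stroma were lower. Of 101 targets, 20 (19.8%) were at least 2-fold higher and 58 (57.4%) lower in 124 cells with Wnt2 than in 7621 without, with intervals leaving out 1 for 17 and 43. Ccn3 led at 52.0 (46.8 to 57.9) and was present in 77.4% of the cells against 3.20%. The proteoglycan Vcan followed at 26.9 (20.4 to 35.1), Wnt9a at 25.4 (15.4 to 40.6), Aspn at 24.6 (21.9 to 27.6), the fibroblast and myeloid gene S100a4 at 22.5 (21.2 to 23.9), Fbn1 at 21.3 (18.2 to 24.8) and Wnt11 at 21.2 (14.3 to 31.0). Wnt10b was at 16.2 (4.72 to 44.8) on 5 molecules. Postn, Aspn, Ccn3 and Fbn1 among the mesenchymal markers were higher, and Fbln5, Mgp, Lepr and Cp were lower. With the first correction step alone the Col10a1 ratio was 1.43. After both steps Ccne1, Col10a1, Mmp9 and Apln were at 0 and at least 6.26-fold, 5.10-fold, 2.52-fold and 2.35-fold lower.

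Within adult cluster 9, 5 of 56 targets (8.93%) were at least 2-fold higher and 19 (33.9%) lower in 101 cells with Wnt2 against 202 without. Fbn1 was at 2.45 (1.98 to 3.04), the adhesion gene Cdh13 at 2.42 (1.95 to 3.01), Ccn3 at 2.21 (1.97 to 2.47) and Wnt9a at 1.93 (1.09 to 3.40). Aspn was nearly level at 1.14 (1.01 to 1.28). Col10a1, Col22a1 and Epyc were at 0, from 10 or 11 molecules in the cells without. Fbn1, Wnt9a, Ccn3, Aspn and Ecm1 had intervals above 1 within the host cluster of both marrow libraries. Of these, Fbn1 alone was at least 2-fold higher in both.

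**Figure D5:**
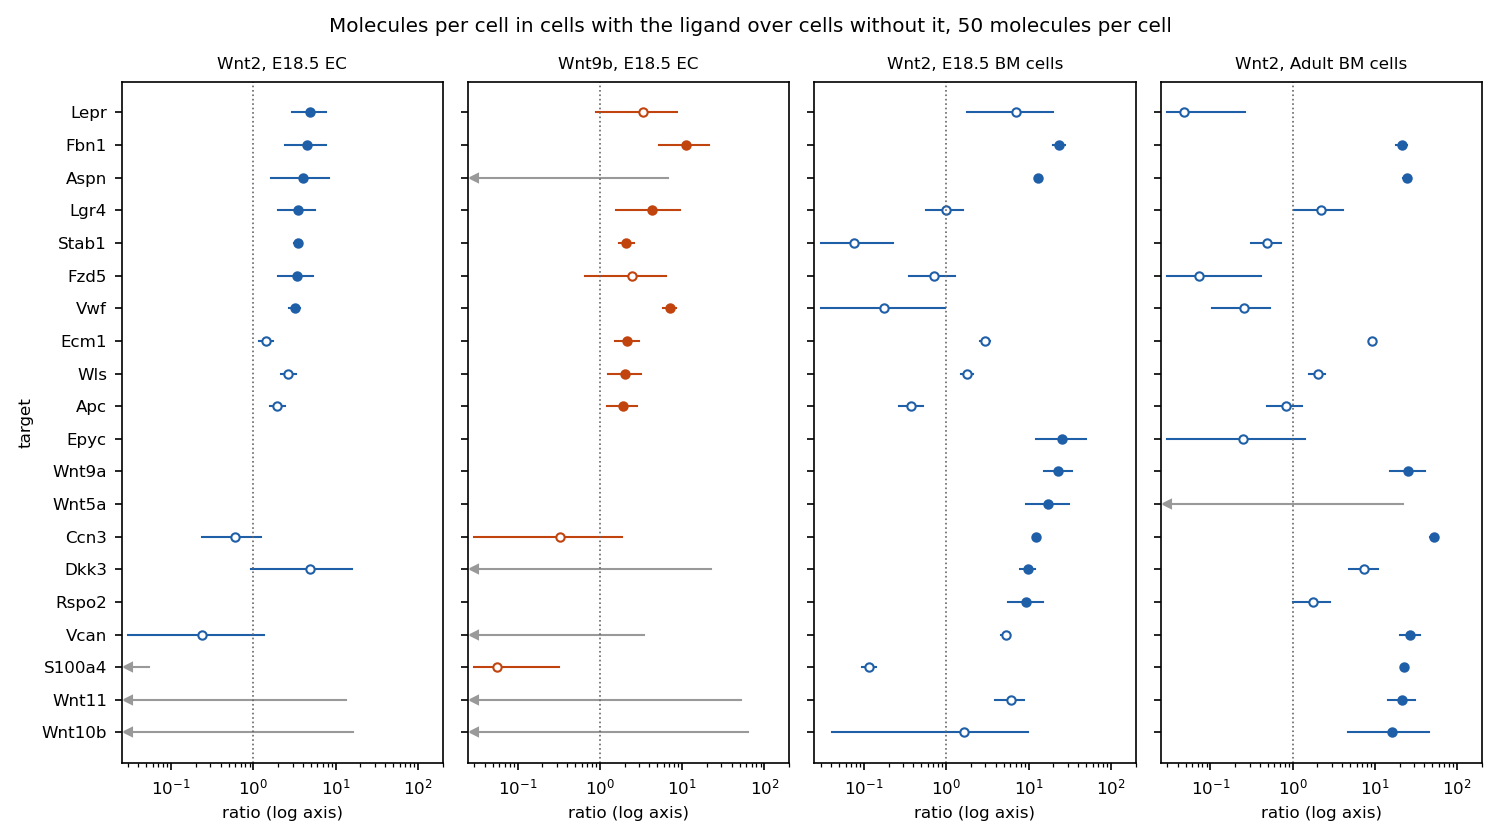
Ratio of molecules per cell in cells with the ligand to cells without it (x axis, log scale, exact 95% interval), at 50 molecules per cell, for targets among the largest ratios in any of the 4 comparisons (filled points where the target was among the named ones, grey arrows where cells with the ligand had 0 molecules). Fbn1 is to the right of 1 in all 4 panels, Stab1 and Vwf only in E18.5 EC, and Ccn3, Aspn, Wnt9a and Wnt11 have their largest ratios in the marrow libraries.

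Among all targets compared, Fbn1 alone was at least 2-fold higher with the ligand in all 4 comparisons, at 4.49 and 11.3 in E18.5 EC, 21.3 in Adult BM cells and 23.5 in E18.5 BM cells. The comparisons in E18.5 EC are not independent, since they share the 19 cells with both ligands. At full depth Fbn1 was present in 13 of these 19 cells. It was present in 8 of 67 cells with Wnt2 alone (11.9%) and in 5.95% of cells with neither. Within cluster 9 of E18.5 EC Fbn1 was at 0.967 (0.180 to 5.19), on 4 molecules in each set of cells. The endothelial and mesenchymal carriers of Wnt2 otherwise had little in common. Stab1 was at 3.45 in E18.5 EC, 0.488 (0.312 to 0.727) in Adult BM cells and 0.0761 (0.0157 to 0.223) in E18.5 BM cells, and Ccn3 was at 0.60 (0.240 to 1.25) in E18.5 EC, 52.0 in Adult BM cells and 12.3 in E18.5 BM cells. The sinusoidal or venous pair, both higher in E18.5 EC, was lower in each marrow library, with Vwf at 0.258 (0.104 to 0.533) in Adult BM cells and 0.173 (0.00437 to 0.972) in E18.5 BM cells.

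Other parts of the Wnt pathway differed between carriers. Of the 3 other ligands that could be compared in E18.5 EC (Wnt5b, Wnt10b and Wnt11), none had a molecule in this draw in the 77 cells with Wnt2 or in the 20 with Wnt9b, where 32, 11 and 13 molecules were counted in the other cells. Intervals for these zeros reach above 1, and the separate draw within cluster 9 gave 1 molecule of Wnt5b in the cells with Wnt2. For E18.5 BM cells 5 of 8 comparable ligands were at least 2-fold higher with Wnt2, beside 31.7% of all targets. These were Wnt9a and Wnt5a, Wnt4 at 6.80 (2.38 to 15.9), Wnt11 at 6.04 (3.97 to 8.89) and Wnt5b at 2.42 (0.872 to 5.40), while Wnt6 and Wnt10a were at 0. In Adult BM cells Wnt9a, Wnt11 and Wnt10b were higher, Wnt4 was at 0.144 (0.00363 to 0.804) on 1 molecule, and Wnt5b was at 0.740 (0.152 to 2.19). Wnt9a and Wnt11 were thus higher with Wnt2 in both marrow libraries. Within the host clusters Wnt11 was at 1.0 (0.628 to 1.56) in Adult BM cells and 0.606 (0.338 to 1.02) in E18.5 BM cells, and both intervals include 1.

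Wls, without which Wnt ligands are not secreted, had a ratio with an interval above 1 in each comparison. It was at 2.67 (2.16 to 3.26) for Wnt2 and 2.05 for Wnt9b in E18.5 EC. In Adult BM cells it was at 2.01 (1.60 to 2.49), and in E18.5 BM cells, short of 2-fold, at 1.79 (1.5 to 2.11). Within the host clusters it was at 1.11 (0.815 to 1.52) in E18.5 EC, 1.02 (0.744 to 1.40) in Adult BM cells and 1.06 (0.869 to 1.28) in E18.5 BM cells. All 3 of these intervals include 1.

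Frizzled and Lgr receptors differed between the carriers. Of 8 comparable receptors in E18.5 EC, Fzd4, Fzd5, Fzd8 and Lgr4 were at least 2-fold higher with Wnt2, beside 19.5% of all targets, and Fzd9 was lower, though only for Fzd5 and Lgr4 did the interval leave out 1. Fzd6 was at 1.29 (0.876 to 1.83) and Fzd7 at 1.04 (0.335 to 2.48). Within cluster 9 of E18.5 EC the intervals of Fzd5 and Lgr4 included 1. In E18.5 BM cells Fzd2 was higher at 6.37 (3.29 to 11.3), as it was in Adult BM cells at 10.2 (1.93 to 35.1) on 3 molecules. Fzd6 and Fzd9 were lower in E18.5 BM cells, at 0.149 (0.0180 to 0.540) and 0.171 (0.0207 to 0.621), while Fzd7 at 1.19 (0.829 to 1.67) and Lgr4 at 0.987 (0.572 to 1.59) were level. In Adult BM cells 7 of 10 receptors were lower, beside 57.4% of all targets. Among them were Fzd5 at 0.0731 (0.00185 to 0.408) and Fzd6 at 0.311 (0.0846 to 0.80), and Lgr4 was at 2.21 (1.05 to 4.13). Rspo2 was at 1.76 (0.999 to 2.88) in the adult.

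Carriers also differed in the niche factors that maintain blood stem cells. Kitl (stem cell factor) was present in 68.6% of E18.5 EC cells with Wnt2 at full depth against 44.9% with neither ligand, but at equal depth its ratio was 0.964 (0.784 to 1.17). It was at 7.17 (6.08 to 8.42) for E18.5 BM cells and at 0.109 (0.0612 to 0.180) for Adult BM cells. Cxcl12, the chemokine that retains stem cells in marrow, was at 0.0859 (0.0709 to 0.103) in Adult BM cells and at 1.31 (0.731 to 2.18) in E18.5 BM cells. Adult cells with Wnt2 thus had less of both factors than the adult cells without it, many of which belong to the Lepr-led clusters. Within the host clusters Cxcl12 was at 1.31 (0.847 to 2.01) in Adult BM cells and lower with Wnt2 in E18.5 BM cells, at 0.167 (0.0858 to 0.296), and Kitl was at 1.11 (0.458 to 2.54) in the adult and 1.96 (1.62 to 2.35) in the embryo.

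Over the 34 clusters of at least 50 cells in the 3 libraries, Fzd8 was most like Wnt2 (Spearman's rho 0.590), followed by Ccn3 (0.561), Dkk3 (0.533), Wls (0.508) and Fzd4 (0.424). Vwf was most like Wnt9b (0.599), followed by Kdr (0.531), Stab1 (0.476), Pecam1 (0.476) and Fzd4 (0.467). The ligands themselves correlated at 0.363, which placed Wnt9b seventh for Wnt2 and Wnt2 eighth for Wnt9b among 124 targets. Clusters of 1 library share depth and preparation, and Wnt9b was seen in 5 of the 34.

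The deposited correction removed most raw molecules of both ligands, much as for the panel. Corrected molecules were 17.8% of raw ones for Wnt2 and 25.6% for Wnt9b in E18.5 EC, against 21.2% over the panel. In Adult BM cells they were 31.0% and 33.8%, against 35.9%. Each corrected Wnt2 molecule rested on 194 reads in E18.5 EC, 24.2 in Adult BM cells and 54.1 in E18.5 BM cells, and each Wnt9b molecule on 92.0 in E18.5 EC and 19.9 in Adult BM cells. The barcodes whose ligand the last correction step set to 0 had a median of 1 read per molecule. The carriers described here are thus those with well-read molecules.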

How the data were processed

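Single cells of 3 libraries were captured and sequenced by the study with a targeted BD Rhapsody panel, 1 library per group. The deposited counts are molecules per cell barcode and amplicon that the authors obtained with the BD Targeted Rhapsody Analysis Pipeline 1.8 (per the file headers, mm10 per the labels). Each molecule is a unique molecular identifier, first freed of substitution errors and then of rarely read molecules by a distribution-based step, and the latter counts were used here. Reads per molecule were used as deposited counts too.

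A barcode needed 20 molecules and 5 targets to be used, and 5, 40 and 9 barcodes fell short. Levels are summed molecules per 10000 panel molecules with exact Poisson intervals, and shares of cells have exact Clopper-Pearson intervals, all at 95% and for counting error only. PCR duplicates are removed by the identifiers, but molecules of 1 cell are not independent of each other. For equal depth, each cell was thinned to 50 molecules and shallower cells were left out, so that 3212 of 4038 cells remained for E18.5 EC, 10578 of 12844 for E18.5 BM cells and 7745 of 7939 for Adult BM cells. For the target ratios, cells were called with a ligand at full depth and thinned to 50 molecules other than the ligands. A target was compared where at least 10 molecules were seen, and a ratio of at least 2 or at most 0.5 counted as higher or lower.

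Clusters were made per library by the Leiden method on 11 principal components of log molecules, with 20 neighbours and resolution 0.5. A cluster was named after a class with at least 3 markers among its 10 leading targets by fold, each above 1.5. The class needed more such markers than any other class, and the first marker in that order had to belong to it. Endothelial, arterial, sinusoidal or venous and capillary markers counted as 1 class. That naming threshold and the set of endothelial clusters were chosen after the data were seen, as were 4 of the alternatives. Names can differ from those of the study.

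For each ligand with at least 20 cells in a library, the text names the 8 largest and 4 smallest ratios whose interval leaves out 1, within the host cluster 5 and 3, the 5 targets most like each ligand over clusters of at least 50 cells, other Wnt ligands, receptors and modulators, and the marker lists by counts. Other values were named after they were seen. A few targets that these rules would name are not reported here. The members and lists were chosen with earlier results of these data known. Scripts were tested on simulated data. Python 3.11.15, numpy 2.4.6, pandas 2.3.3, scipy 1.17.1, scikit-learn 1.9.0, igraph 0.11.9 and matplotlib 3.10.9 were used. Porcn, Axin2, Lrp5 and Lrp6 are not analysed here.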

Additional observations from a re-analysis of the deposited data

Results flagged for a closer look

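For 9 targets the ratio of cells with Wnt2 to cells without it was at least 2 in one marrow library and at most 0.5 in the other. Their intervals did not include 1. In each library 101 targets were compared. By the same folds 31.7% were higher and 49.5% lower in E18.5 BM cells, and 19.8% higher and 57.4% lower in Adult BM cells. The difference between the libraries was not tested, since each group is 1 library, and stage cannot be told apart from library, depth or the mix of cells without Wnt2. All values are at 50 molecules per cell.

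In 7 of them the ratio was high in E18.5 BM cells and low in Adult BM cells. Kitl had a ratio of 7.17 in E18.5 BM cells, from 0.890 against 0.124 molecules per cell, and 0.109 in Adult BM cells, from 0.121 against 1.11. Fbln5, a matrix protein of elastic fibres, had 8.01 (0.466 against 0.0581 per cell) and 0.349 (0.298 against 0.854). Mgp, an inhibitor of calcification, had 5.69 (3.47 against 0.609) and 0.309 (0.823 against 2.66). For these genes the level in cells without Wnt2 was higher in Adult BM cells than in E18.5 BM cells.

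Pth1r, the parathyroid hormone receptor, had 6.83 (0.157 against 0.0230) and 0.212 (0.0484 against 0.228). Notch3, a receptor of mural cells, had 2.47 (0.209 against 0.0847) and 0.194 (0.0645 against 0.333). Lepr had 7.02 and 0.0473 but rested on 4 and 1 molecules in the cells with Wnt2. Wnt4 had 6.80 and 0.144 on 6 and 1 molecules.

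The opposite was seen for a pair of targets. S100a4 had 0.114 in E18.5 BM cells (0.555 against 4.85 molecules per cell) and 22.5 in Adult BM cells (11.8 against 0.522). Cdh13 had 0.156 (0.0105 against 0.0669), on 2 molecules in the cells with Wnt2, and 9.89 (1.56 against 0.158).

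Within the host clusters, cluster 5 of E18.5 BM cells and cluster 9 of Adult BM cells, Cdh13 and S100a4 still had intervals on opposite sides of 1. Cdh13 was at 0.0823 (0.00205 to 0.474) and 2.42 (1.95 to 3.01), and S100a4 at 0.469 (0.310 to 0.686) and 1.37 (1.27 to 1.47). Mgp was lower with Wnt2 in both, at 0.601 (0.546 to 0.659) and 0.127 (0.0912 to 0.172). For the other 6 targets at least 1 of the intervals included 1.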

How the results depend on the processing

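Of 374 ratios of named targets recomputed under the alternatives, 363 stayed on the same side of 1, although 101 of these moved out of the counting interval first given, and 11 reversed. With raw molecules the Wnt2 level was 10.3 per 10000 for E18.5 EC, 0.782 for Adult BM cells and 4.15 for E18.5 BM cells, and after the first correction step alone it was 0.861 in the adult and 3.68 for E18.5 BM cells. That step alone gave 9.89% for the share of E18.5 EC Wnt2 cells with Wnt9b, 7 higher targets for Wnt2 in E18.5 EC, and reversed ratios of 0.906 for Aspn in E18.5 EC, 1.10 for Mecom in cluster 9, 0.892 for Spp1 in cluster 5 and 1.43 for Col10a1 in Adult BM cells. The host cluster's share of molecules became 73.9% for Wnt2 in E18.5 EC with 20 principal components, 87.4% for Wnt2 in E18.5 BM cells and 61.5% for Wnt9b in Adult BM cells at resolution 1, and 68.2% for Wnt9b in E18.5 EC and 82.1% for Wnt2 in E18.5 BM cells with molecules scaled to 10000. The host itself changed too. With that scaling it was, for both E18.5 EC ligands, a cluster with Postn first by fold, although most of its cells lacked Postn. For Wnt9b in E18.5 EC it was the Stab1-led cluster with 20 components. For Wnt9b in Adult BM cells it was a Vwf-led cluster with 20 components or at resolution 1. Wnt9b in E18.5 EC had 9 higher targets without the deepest 2% of cells and 9 within endothelial clusters alone, and Wnt2 in E18.5 BM cells had 15 without cells of other lineages. Aspn in E18.5 EC was at 0 when called after thinning, without the deepest cells, without cells of other lineages and within endothelial clusters. Spp1 in cluster 5 was 0.471 when called after thinning, and without cells of other lineages Fzd6 in cluster 9 was 0.923 and Kdr in E18.5 BM cells 3.17. The cause was not tested for any of these. With 1 library per group no replicate could be left out, and the few cells with Wnt9b limit every statement on it.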
